A study of Mus musculus with 9 samples.

Results

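The Ube2 genes of the mouse were described in ovulated eggs sorted by the colour of a Cre reporter. The genes were chosen by name: every protein-coding row whose symbol begins with Ube2, which gave 34 genes of the 30153 in the joined count tables. Of these, 32 had enough counts to be tested in every comparison. Ube2l6 and Ube2ql1 did not, with at most 2 and 11 counts in any library. A further 4 rows with such names are pseudogenes or antisense transcripts and were left out. The name also takes in a few proteins that are not conjugating enzymes: Ube2v1 and Ube2v2 are inactive variants that lack the catalytic cysteine, and Ube2cbp binds Ube2c and acts as a ligase.

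The libraries came from metaphase II eggs of 4-week-old females on a mixed background, all of them Sycp3CreERT2/+; Rosa26nT-nG/+. Sycp3 is a meiotic chromosome-axis gene, so this driver places a tamoxifen-inducible Cre in germ cells, and the nT-nG reporter switches from nuclear tdTomato to nuclear GFP when Cre recombines it. Females received 5 IU of PMSG and, 48 h later, 5 IU of hCG, and eggs were collected 13 h after hCG, freed of their cumulus cells by hyaluronidase and hand-picked by fluorescence. There were 3 groups of 3 libraries: GFP High (pools of 15, 15 and 16 eggs), GFP Low (49, 52 and 57) and RFP (88, 87 and 100). The timing of tamoxifen is not used here. All groups carry the same genotype, so the comparisons set eggs sorted as strongly green, weakly green or red side by side. Group and pool size cannot be told apart, because GFP High pools were the smallest and RFP pools the largest.

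Ubiquitin is attached to proteins by a relay. An activating enzyme (E1) charges ubiquitin, a conjugating enzyme (E2) takes it onto a cysteine as a thioester, and a ligase (E3) brings the loaded E2 to the substrate. The E2 largely sets which kind of chain is built, and related E2s carry ubiquitin-like proteins such as NEDD8 and ISG15. An egg at metaphase II is held there until fertilization lets the anaphase-promoting complex (APC/C) mark cyclin B and securin for destruction. It makes little or no new RNA, so its transcripts are those stored during growth.

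The stretch around the catalytic cysteine is shown because it is what makes these proteins a family. Each line gives 45 coding bases, 5′ to 3′, from the GENCODE M21 transcript (GRCm38). Capitals mark the codons of the His-Pro-Asn motif and of the cysteine, with 7 codons between Asn and Cys.
Ube2c: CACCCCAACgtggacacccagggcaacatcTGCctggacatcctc
Ube2s: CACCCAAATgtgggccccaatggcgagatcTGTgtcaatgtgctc
Ube2a: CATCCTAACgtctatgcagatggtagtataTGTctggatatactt
Ube2b: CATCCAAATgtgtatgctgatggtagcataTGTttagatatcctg
Ube2d1: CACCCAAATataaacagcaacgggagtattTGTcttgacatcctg
Ube2d3: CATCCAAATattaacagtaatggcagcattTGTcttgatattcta
Ube2n: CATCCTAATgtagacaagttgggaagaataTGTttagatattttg
Ube2f: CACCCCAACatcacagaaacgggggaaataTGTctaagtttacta

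This arrangement of codons was found in 17 of the 34 genes (50%) and in 70 of the 21901 coding genes searched (0.32%), on the coding strand and in frame. His-Pro-Asn codons alone, at any spacing, were found in 20 of the 34. No match says only that these codons are not at this spacing in the transcript searched. The closest relatives here are Ube2d2a and Ube2d3, whose coding sequences of 441 bases are 86.4% identical. Ube2a and Ube2b, the mammalian copies of yeast Rad6, share 77.6% of 456 bases, and Ube2d1 and Ube2d3 share 77.3%.

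Each library held between 19381677 and 27746256 counts, so that 3 counts correspond to 0.108 to 0.155 CPM, the count scaled to a common library total. The reporter transcripts followed the labels in order: eGFP had 869 to 1081 counts where eggs were labelled GFP High, 282 to 662 for GFP Low and 0 to 16 for RFP, and tdTomato had 0 to 2, 16 to 35 and 46 to 94. All 12 oocyte markers were present in every library, with summed levels of 11370 to 13490 CPM. The 16 cumulus and granulosa markers summed to 50.7, 13.0 and 14.8 CPM in the GFP High libraries, to 43.4, 15.4 and 28.8 in GFP Low, and to 24.6, 61.6 and 19.3 in RFP, so every group held both low and higher libraries. Of these markers, Amh and Pgr were each at 0 in 8 of the 9 libraries. Cyp19a1 (165 to 499 counts), Kitl (36 to 71) and Star (1 to 51) had counts in every library, and Tnfaip6, Ptx3 and Inhba reached 249, 221 and 188 in the second RFP library. The labels do not say that the pools came from separate females, and p-values below measure only the spread between these libraries.

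The 34 genes summed to 0.397% of all counts for GFP High, 0.383% for GFP Low and 0.397% for RFP. The summed level was 3977 ± 193 CPM (SD, n = 3), 3837 ± 72.5 and 3952 ± 80.6, and the range of each group overlapped that of the others. Levels between genes were compared as the deposited FPKM, which divides by gene length. By this scale 17 genes had a mean of 10 FPKM or more over the 9 libraries, 12 lay between 1 and 10, and 5 were below 1. Ube2g1 was first (75.4 FPKM, range 63.9 to 83.8), followed by Ube2h (70.8, 50.1 to 87.7), Ube2k (70.0, 61.1 to 78.1), Ube2c (59.0, 42.6 to 81.2) and Ube2s (53.5, 45.1 to 63.5). Every one of the 33 pairs of neighbours in this order overlapped in range. Both genes of a pair come from the same libraries, and neighbours were not compared library by library. The overlap therefore does not show that neighbours are unordered.

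**Figure D1:**
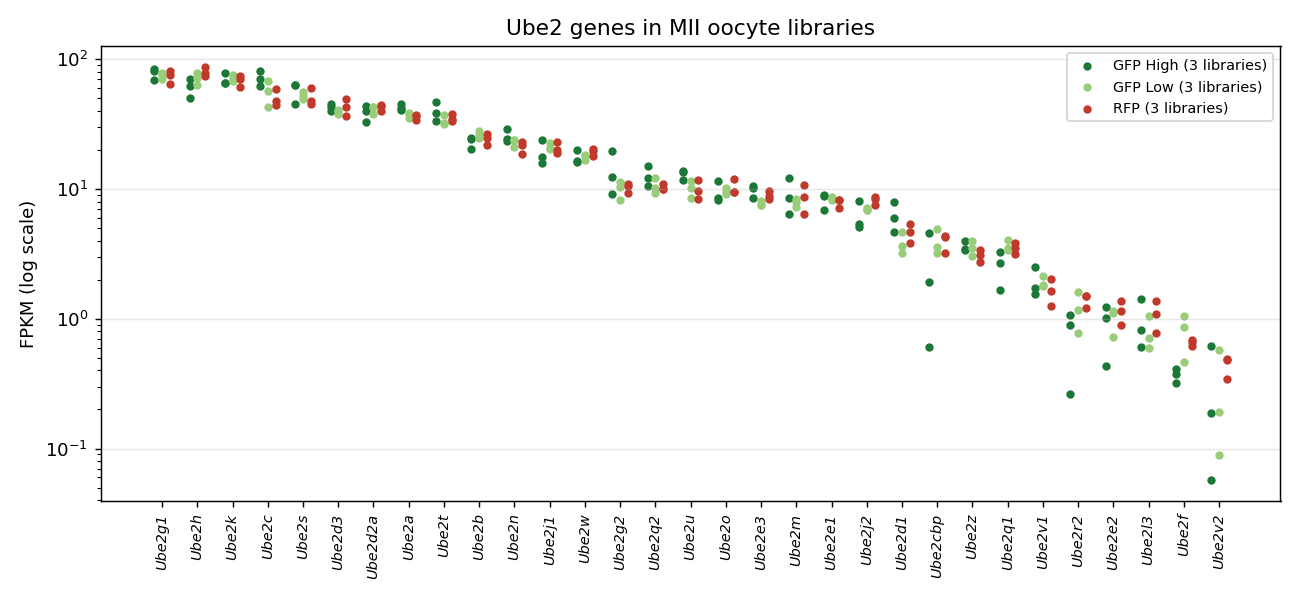
FPKM (log scale) of 31 Ube2 genes detected in all 9 libraries, ordered by their mean, with 1 point per library coloured by group. The groups lie on top of each other for most genes, from Ube2g1 at 75.4 FPKM to Ube2v2 at 0.336 FPKM. Ube2ql1 and Ube2l6, at 0 in some libraries, are not drawn.

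The order depends on the length used. The deposited gene length of Ube2d3 is 24499 bases, against 3833 for its longest coding transcript in GENCODE, a ratio of 6.39. With transcript lengths, which were tried after the data were seen, Ube2d3 moved from rank 6 to rank 1 (266.9 per kilobase), Ube2s from 5 to 2 (222.3) and Ube2t from 9 to 3 (156.7). Ube2c moved from rank 4 to 7 (70.1), and Ube2g1 from 1 to 5 (87.9). The fall of Ube2c rests on a longest coding transcript of 2191 bases. The Ube2c transcript whose bases are printed above has 967, and ranks with such lengths were not computed. For 8 of the 34 genes the ratio exceeded 2. Comparisons of a gene between groups do not use length.

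**Figure D2:**
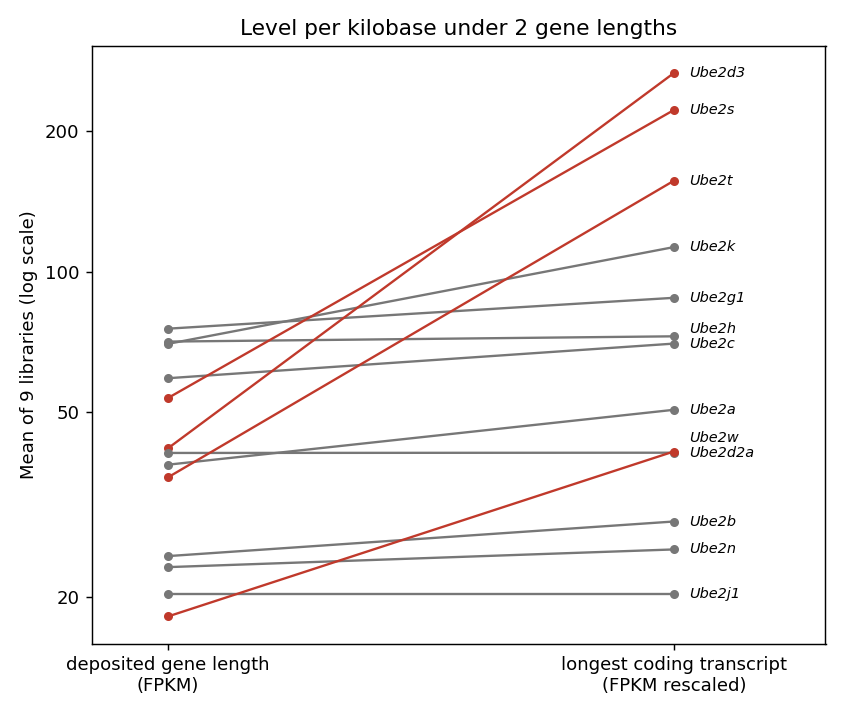
Mean level of 9 libraries (log scale) for 13 Ube2 genes with high FPKM, by the deposited gene length (left) and by the longest coding transcript (right). Lines in red are genes whose 2 lengths differ by more than 2 times, and Ube2d3, Ube2s and Ube2t pass Ube2g1, Ube2h and Ube2c.

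No Ube2 gene passed an adjusted p of 0.05 in any comparison by edgeR's quasi-likelihood test with Benjamini-Hochberg adjustment. Between GFP High and RFP, 0 of 32 were called, where 2 of all 14829 genes were (0.0135%). Between GFP Low and RFP it was 0 of 32, with 3 of 15199 overall (0.0197%), and between GFP High and GFP Low 0 of 32, with 0 of 14785 overall (0%). At an unadjusted p below 0.05 there were 2, 0 and 2 of the 32 genes, against 4.09%, 2.62% and 3.77% of all genes tested. DESeq2 and limma-voom also called 0 of the 32 in each comparison. In the authors' deposited table the smallest adjusted p of any Ube2 gene was 0.197, for Ube2c between GFP High and RFP.

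Fitted differences were small and lay in both directions. The median log2 fold change of the 32 genes was 0.03 when GFP High was set against RFP, -0.03 when GFP Low was, and 0.02 between the 2 GFP groups, beside -0.01, 0.00 and 0.00 for all genes tested. Values above 0 were fitted for 17, 15 and 18 of them, against 49.3%, 48.9% and 49.4% of all genes. A difference of 1.5 times or more was fitted for 4, 1 and 4, against 21.2%, 11.2% and 21.3%. The compared libraries were fully separate for 6, 3 and 5 of the 32 genes (18.8%, 9.38% and 15.6%), with 11.9%, 7.68% and 11.5% among all genes. In counts simulated from the same libraries, the test recovered part of the genes changed 2-fold. The share was 44.8% between GFP High and RFP, 74.6% between GFP Low and RFP and 52.2% between GFP High and GFP Low. The simulation planted 67 genes at 1.5-fold, 67 at 2-fold and 66 at 4-fold, all with a mean of at least 50 counts. That many changes ease the adjusted threshold, whereas the real fits called 2, 3 and 0 genes. Recovery in the real data may therefore be lower than these shares. At 1.5-fold it recovered 8.96%, 40.3% and 16.4%, so differences of that size were mostly not detectable in the comparisons with GFP High.

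**Figure D3:**
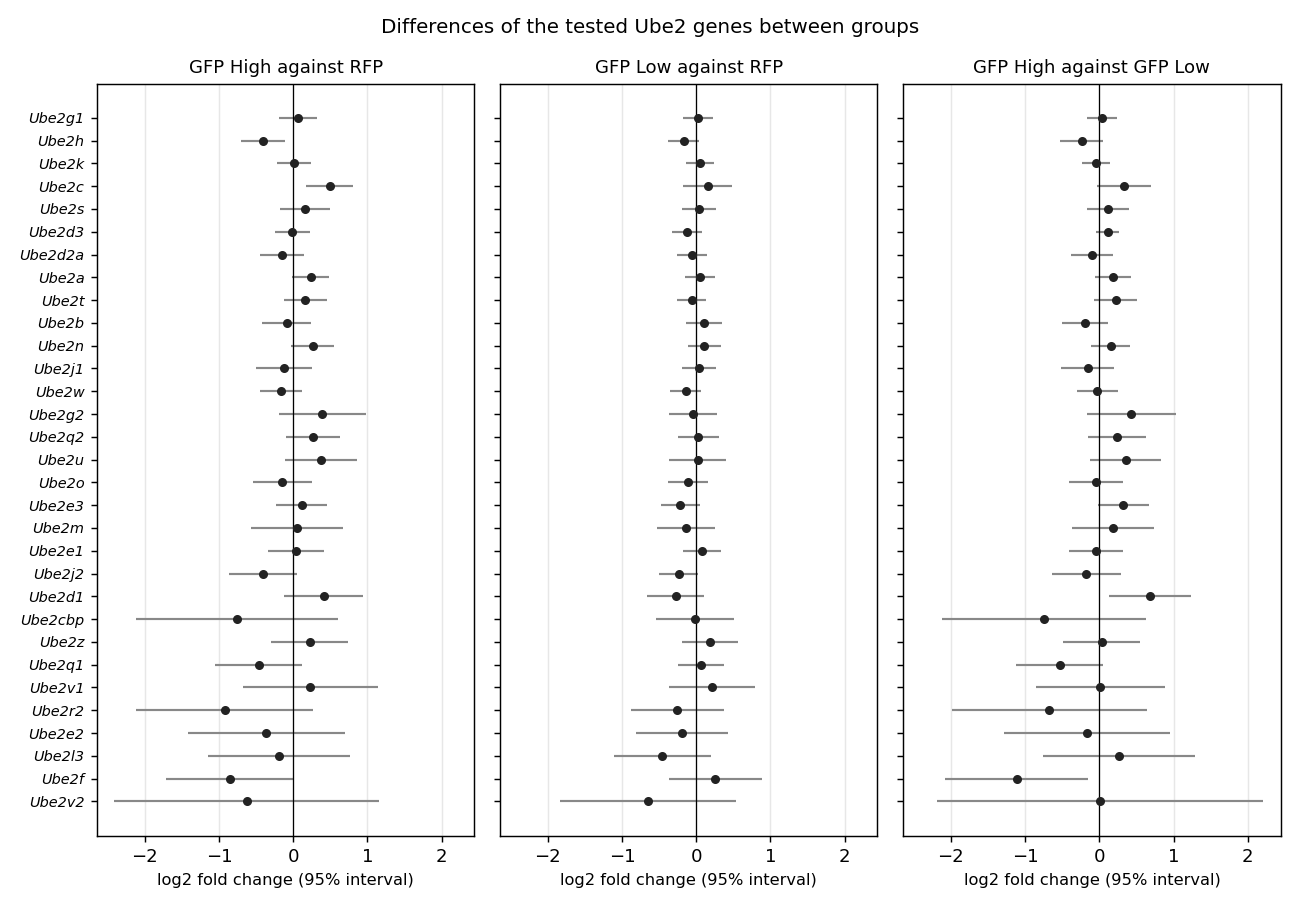
Fitted log2 fold change (points) with its 95% interval (lines) for 31 tested Ube2 genes in 3 comparisons, with genes ordered by FPKM from top to bottom. Most intervals include 0, those of Ube2c and Ube2h in GFP High against RFP and of Ube2d1 and Ube2f in GFP High against GFP Low do not, and none of these passed the adjusted threshold.

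The APC/C uses a pair of E2s in turn: Ube2c places the first ubiquitins on a substrate and Ube2s extends them into chains linked through lysine 11. Ube2c (ENSMUSG00000001403, chromosome 2, 164769898 to 164778822, plus strand) had 183.9, 210.8 and 161.3 CPM across GFP High libraries, 112.0, 150.7 and 178.3 across GFP Low, and 153.9, 115.7 and 127.7 across RFP. All GFP High libraries were above all RFP libraries, while GFP Low spanned both. In pooled eggs, more transcript per egg and more eggs with a high level cannot be told apart. The log2 fold change of GFP High over RFP was 0.49 (SE 0.14, 95% interval 0.18 to 0.80), the smallest unadjusted p of the family in that comparison (0.00581), and the adjusted p by edgeR was 0.997. It was 0.34 (SE 0.16) over GFP Low, or 0.17 without the first GFP Low library. GFP Low over RFP was 0.15 (SE 0.15), and ranged from -0.012 without the third GFP Low library to 0.32 without the first. Without the library of each group that held the most cumulus counts, the GFP High to RFP value was 0.40 (unadjusted p = 0.0624 by edgeR).

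Ube2s had 324.8, 326.0 and 235.2 CPM across GFP High libraries, 270.9, 256.9 and 290.1 across GFP Low, and 234.7, 310.3 and 252.4 across RFP. The third GFP High library was close to the lowest RFP library, and the groups overlapped. GFP High over RFP was 0.16 on the log2 scale (SE 0.15). Leaving out 1 library moved it between 0.07 (without the first RFP library) and 0.29 (without the third GFP High library), by over 1.5 times for 5 of the 6 libraries. The family's FPKM is a sum over genes that depends on the deposited lengths. Of it, the pair held 17.8% ± 1.76 for GFP High, 15.8% ± 1.81 for GFP Low and 14.7% ± 0.788 for RFP (SD, n = 3). Other shares differed too, in the same group order. The 6 genes listed for DNA damage and chromatin held 18.51%, 17.81% and 17.15%, and the 9 genes with no listed role 14.77%, 16.59% and 17.7%. Ube2s overlaps Rpl28, a ribosomal protein gene, by 521 bases on the opposite strand, and whether counting used strand is not given in the sources used here. Of the 18 APC/C subunits and regulators listed, all 18 were tested and 0 were called in each comparison, beside 0.0135%, 0.0197% and 0% of all genes, so this count does not set the list apart.

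The Ube2d and Ube2e enzymes are general partners of RING ligases, and Ube2w attaches ubiquitin to protein N-termini. Ube2d3 held the most counts of the family in every library, with 1118, 1057 and 991.9 CPM across GFP High libraries, 990.7, 939.7 and 1004 across GFP Low, and 1214, 1068 and 916.2 across RFP. Its log2 fold change between GFP High and RFP was -0.01 (SE 0.11), which changed sign under other scalings, and its interval of -0.25 to 0.23 bounds the difference. Ube2d2a, nearly identical to it as a protein, had 81.5, 108.4 and 99.8 CPM across GFP High libraries, 107.5, 106.7 and 95.7 across GFP Low, and 111.0, 109.9 and 100.7 across RFP. The first GFP High library was the lowest of the 9 and the groups overlapped. Neither gene was called.

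Ube2d1 (ENSMUSG00000019927, chromosome 10, 71254980 to 71285262, minus strand) had 26.2, 34.9 and 20.5 CPM across GFP High libraries, 16.1, 14.1 and 20.5 across GFP Low, and 23.7, 17.1 and 20.7 across RFP. The lowest GFP High library equalled the highest GFP Low library to 3 digits. Its log2 fold change of GFP High over GFP Low was 0.69 (SE 0.25, 95% interval 0.13 to 1.24), with an unadjusted p of 0.0199 and an adjusted p of 0.998 by edgeR. Ube2e3 had 37.9, 44.5 and 46.6 CPM across GFP High libraries, 36.1, 33.7 and 33.3 across GFP Low, and 39.3, 37.0 and 43.3 across RFP. All GFP Low libraries lay below those of both other groups, at log2 values of 0.32 (SE 0.15) for GFP High over GFP Low and -0.21 (SE 0.12) for GFP Low over RFP. Neither comparison passed (adjusted p by edgeR 0.998 and 1.00). Ube2e1 shares 49.3% of its 50-base windows with Nkiras1 on the opposite strand, and whether this touched its counts was not tested.

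Ube2a and Ube2b work with Rad18 on the DNA clamp PCNA and with Rnf20 and Rnf40 on histone H2B, and eggs of mice without Ube2a give embryos that stop after the first cleavage. Ube2a had 102.4, 95.4 and 93.3 CPM across GFP High libraries, 86.1, 81.0 and 89.1 across GFP Low, and 78.4, 84.9 and 84.5 across RFP. GFP High lay above both other groups without overlap, by a log2 fold change of 0.24 (SE 0.11) over RFP and 0.19 (SE 0.11) over GFP Low. Neither was called (adjusted p 0.997 and 0.998, edgeR). Ube2a overlaps C330007P06Rik, a protein-coding gene with 567 to 1046 counts per library, by 212 bases on the opposite strand. Whether this touched its counts was not tested. Ube2b had 52.4, 51.8 and 43.3 CPM across GFP High libraries, 56.0, 52.8 and 59.8 across GFP Low, and 47.4, 56.6 and 53.3 across RFP. It lay lower in GFP High than in GFP Low without overlap, at -0.19 (SE 0.14), or -0.11 without the third GFP High library. The 2 copies were at 38.5 and 24.5 FPKM, beside 50.1 for Rnf20, 51.9 for Rnf40 and 11.9 for Rad18.

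Ube2n builds lysine-63 chains only together with a Ube2v partner, and Ube2t works with the Fanconi anaemia ligase Fancl. Ube2n had 103.8, 121.6 and 99.9 CPM across GFP High libraries, 89.3, 101.9 and 101.7 across GFP Low, and 93.6, 97.4 and 80.8 across RFP. All GFP High libraries were above RFP, at a log2 fold change of 0.26 (SE 0.13, adjusted p 0.997 by edgeR), which was 0.17 without the second GFP High library. At 23.2 FPKM, Ube2n stood far above its partners Ube2v1 (1.83) and Ube2v2 (0.336). For Ube2v1 this level is uncertain, since 91.2% of its 50-base windows also occur in other gene models, mostly in a readthrough model, Gm20431, that is not used here. The share was 9.36% for Ube2v2 and 10.7% for Ube2n. The pseudogene Gm6565, which shares windows with Ube2v2, had 55 to 152 counts per library, against 10 to 120 for Ube2v2. Whether this touched the levels was not tested. Ube2t had 162.6, 226.9 and 187.2 CPM across GFP High libraries, 154.5, 182.5 and 158.3 across GFP Low, and 168.5, 183.7 and 165.4 across RFP, with overlapping groups. GFP High over RFP was 0.16 (SE 0.13), and it was 0.02 without the second GFP High library and 0.26 without the first.

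Ube2g1, Ube2g2, Ube2j1 and Ube2j2 serve the removal of misfolded proteins from the endoplasmic reticulum, the last 2 as membrane-anchored enzymes. Ube2g1 had 385.2, 368.4 and 316.6 CPM across GFP High libraries, 348.6, 328.4 and 366.1 across GFP Low, and 296.1, 351.0 and 379.4 across RFP, with full overlap and a log2 fold change of 0.07 (SE 0.12) for GFP High over RFP. Ube2j1 had 84.8, 56.0 and 62.2 CPM across GFP High libraries, 74.2, 80.1 and 72.2 across GFP Low, and 70.8, 82.4 and 68.6 across RFP, again overlapping. Ube2j2 had 35.7, 23.8 and 22.8 CPM across GFP High libraries, 30.4, 30.5 and 32.0 across GFP Low, and 33.6, 38.5 and 37.5 across RFP. GFP Low lay below RFP without overlap, at -0.24 (SE 0.12), the smallest unadjusted p of the family in that comparison (0.0728, adjusted 1.00, edgeR). GFP High over RFP was -0.41 (SE 0.21) with overlap through the first GFP High library. Without the libraries with the most cumulus counts, which leaves that one out, it was -0.61 (unadjusted p = 0.0257, adjusted 0.927, edgeR). Without that library alone it was -0.65 (unadjusted p = 0.00466, adjusted 0.464, edgeR). In that fit 9.78% of all genes had an unadjusted p below 0.05. The value was -0.32 without the second GFP High library and -0.30 without the third.

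Ube2k makes lysine-48 chains, and Ube2r2 serves cullin ligases beside its relative Cdc34. Ube2k had 524.1, 615.9 and 517.2 CPM across GFP High libraries, 598.9, 538.4 and 575.3 across GFP Low, and 487.8, 591.7 and 570.9 across RFP, with overlapping groups and 0.01 (SE 0.10) for GFP High over RFP. Ube2r2 had 3.76, 1.10 and 4.54 CPM across GFP High libraries, 6.75, 3.32 and 4.94 across GFP Low, and 6.34, 5.09 and 6.42 across RFP. It lay lower in GFP High than in RFP without overlap, at -0.92 (SE 0.53, 95% interval -2.11 to 0.27), an interval too wide to place its size. It was -0.52 without the second GFP High library. Per length, Ube2r2 was at 1.11 FPKM and Cdc34 at 20.6.

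The E2 of ISG15, Ube2l6, had 2 counts in a single RFP library and 0 in the other 8, and its E1, Uba7, had a mean of 0.0223 FPKM.

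NEDD8 has a pair of E2s, Ube2m for most cullins and Ube2f for Cul5. Ube2m had 20.2, 28.5 and 15.3 CPM across GFP High libraries, 18.8, 17.5 and 20.1 across GFP Low, and 15.4, 20.8 and 25.8 across RFP, with overlap throughout. Ube2f (ENSMUSG00000034343, chromosome 1, 91250304 to 91290337, plus strand) had 3.61, 3.33 and 2.83 CPM across GFP High libraries, 7.68, 4.12 and 9.41 across GFP Low, and 5.55, 5.97 and 6.23 across RFP. All GFP High libraries lay below all others. The log2 fold change was -1.11 (SE 0.43, 95% interval -2.08 to -0.15) against GFP Low, with an unadjusted p of 0.0279 and an adjusted p of 0.998 by edgeR. Against RFP it was -0.85 (SE 0.38, adjusted p 0.997). Per length, Ube2m was at 8.51 FPKM and Ube2f at 0.606.

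Ube2h, the E2 of the CTLH ligase complex (chromosome 6, 30211289 to 30304539, minus strand, ENSMUSG00000039159), had 297.1, 239.1 and 341.3 CPM across GFP High libraries, 378.9, 348.4 and 307.9 across GFP Low, and 360.4, 375.7 and 428.7 across RFP. GFP High lay below RFP without overlap and GFP Low overlapped both. The log2 fold change of GFP High over RFP was -0.40 (SE 0.13, 95% interval -0.70 to -0.11), with an unadjusted p of 0.0120 and an adjusted p of 0.997 by edgeR. Without the libraries with the most cumulus counts it was -0.44 (unadjusted p = 0.0600, edgeR). For GFP Low over RFP it was -0.17 (SE 0.09), and -0.26 without those libraries (unadjusted p = 0.0441, adjusted 1.00, edgeR). It was -0.094 without the third RFP library and -0.096 without the third GFP Low library. A lincRNA model, Gm26526, holds 46.1% of the 50-base windows of Ube2h and had 47 to 123 counts per library.

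**Figure D4:**
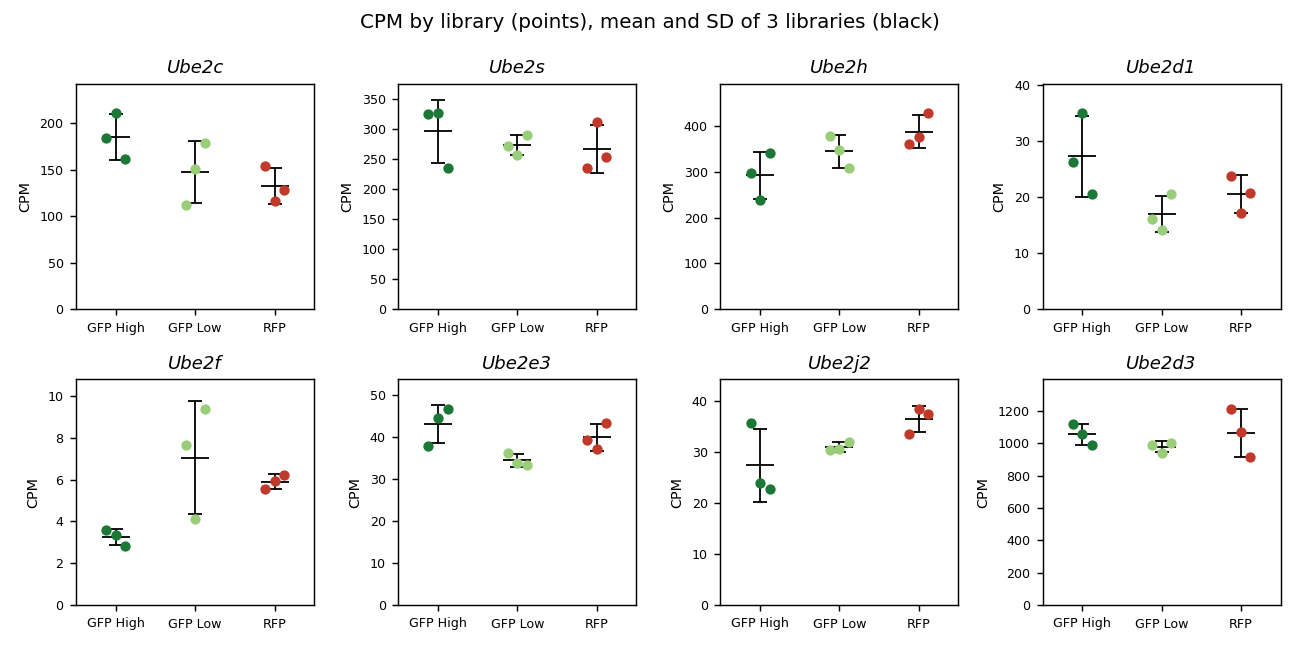
CPM of 8 Ube2 genes in each library (points, coloured by group), with the mean and SD of 3 libraries in black and axes that start at 0. GFP High sits above RFP for Ube2c and below it for Ube2h and Ube2f, and the groups overlap for Ube2s, Ube2d1 and Ube2d3.

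The remaining genes were described by range. Over the 9 libraries, Ube2w ranged from 80.0 to 102.1 CPM, Ube2q2 from 40.4 to 65.1, Ube2o, a large enzyme that joins E2 and E3 functions, from 43.4 to 65.0, and Ube2u from 13.2 to 21.4. Ube2w lay lower in all GFP Low libraries than in all RFP libraries, at -0.14 (SE 0.09). Ube2e2 and Ube2v2 were low, at 2.01 to 6.49 and 0.407 to 4.38 CPM. Ube2z, which accepts ubiquitin from the alternative E1 Uba6, had means of 14.5, 14.2 and 12.5 CPM in the 3 groups and stood at 3.40 FPKM beside 3.09 for Uba6. Ube2l3, a partner of HECT and RBR ligases, had 0.936 FPKM. Ube2cbp ranged from 1.10 CPM in the first GFP High library to 8.98 in the third GFP Low library, and the groups overlapped. Ube2q1 had 20.3, 10.3 and 16.9 CPM in GFP High and 21.3 to 25.4 in GFP Low, without overlap, at -0.53 (SE 0.26, adjusted p 0.998 by edgeR), or -0.31 without the second GFP High library. Its RFP libraries, at 19.8 to 24.2 CPM, overlapped GFP High.

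Spread between libraries was widest in GFP High, the group of smallest pools. Among the 23 Ube2 genes with at least 20 CPM, the median coefficient of variation was 16.9% for GFP High, 6.23% for GFP Low and 9.24% for RFP. All 6062 genes at that level had 13.3%, 7.40% and 8.72%. The widest in GFP High was Ube2g2 (38.9%), with 22.2, 47.5 and 30.1 CPM. The narrowest was Ube2a (4.94%).

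Genes that feed or use the E2s were counted from lists of textbook partners. Of 10 E1 and related enzymes, 9 were tested, and 0 were called in either direction in each comparison, where 0.0135%, 0.0197% and 0% of all genes were. The same count of 0 was found for all 8 E2s and E2-like genes with other names and for all 20 partner ligases. At an unadjusted p below 0.05, the E1 list had 0, 1 and 2 genes in the 3 comparisons as ordered above, the other E2s had 1, 0 and 1, the APC/C list 1, 0 and 1, and the ligases 1 in each, beside 4.09%, 2.62% and 3.77% of all genes.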

How the data were processed

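RNA-seq of 9 libraries was used, 3 each of GFP High, GFP Low and RFP. The authors deposited 3 tables, 1 per pair of groups, with raw read counts, normalized count signal, FPKM, and their own log2 fold changes and p-values. The submitters' processing notes name fastp, HISAT2 2.0.5, featureCounts 1.5.0-p3, DESeq2 1.20.0 and mm10, without further settings. Tables were joined by gene ID: 30153 genes, 0 counts differing between tables, and 178 genes with a missing count set to 0.

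Each pair was tested on its 6 libraries with edgeR 4.0.16 (filterByExpr, TMM, glmQLFit, glmQLFTest; R 4.3.3), and p-values were adjusted by Benjamini-Hochberg over all genes tested, with a threshold of 0.05. CPM used TMM factors over 9 libraries. Scripts were tested on simulated data with 14829, 15199 and 14785 genes, in which 67 genes were changed 1.5-fold, 67 2-fold and 66 4-fold. With 3 libraries against 3, an exact permutation test of a single value cannot go below 0.1, and none was used. Depth was 19381677 to 27746256 counts per library. The 95% intervals of fold changes come from the edgeR fits and include the spread between libraries, while the floor of 3 counts covers counting error only.

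Alternatives were no filter, other scaling, DESeq2 1.42.0, limma-voom (limma 3.58.1), a replicate block and leaving out libraries. The rule for genes given a value in every library took the 10 with the highest FPKM, the 3 with the smallest p in each comparison, and 10 with textbook roles. Ube2q1, Ube2g2, Ube2w and some ranges were added after their values were seen. The members and lists were chosen with earlier results of these data known. Gene models and sequences are from GENCODE M21. All members but Ube2d2a have the same coordinates there. Among the 34 genes, 1 is counted in the totals and is not reported here by name.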

Additional observations from a re-analysis of the deposited data

How the results depend on the processing

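The count of Ube2 genes past an adjusted p of 0.05 was 0 in each comparison under all 15 settings run, and the smallest adjusted p of a Ube2 gene in any of them was 0.175 (GFP High against RFP), 0.818 (GFP Low against RFP) and 0.444 (GFP High against GFP Low). At an unadjusted p below 0.05 the settings gave 1 to 7, 0 to 3 and 0 to 8 Ube2 genes, and 1.85 to 11.1%, 0.536 to 4.44% and 1.77 to 10.2% of all genes. The highest counts came without the first GFP High library (7 of 32, with 9.78% of all genes), without the first GFP Low library (3 of 32, with 4.44%) and without the first GFP High library (8 of 32, with 9.33%). Counts over all genes moved more, and the cause was not tested. GFP High against RFP had 2 genes, 16 without the filter on low counts, 9 by DESeq2, 1 by limma-voom and 0 without the libraries with the most cumulus counts. Leaving out 1 library gave 0 to 2. GFP Low against RFP had 3 genes, 34 without the filter, 10 by DESeq2 and 1 by limma-voom. GFP High against GFP Low had 0 genes, 16 without the filter and 3 by DESeq2, and 0 to 1 with 1 library left out. With the replicate block the counts were 4, 3 and 0 for all genes. Same-numbered libraries had correlations of -0.106 to 0.12 in their deviations from the group means. The titles do not state that equal numbers pair samples, and these correlations cannot settle it. The block is therefore not read as a paired result.

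The median log2 fold change of the Ube2 genes ranged from -0.0382 to 0.053 in GFP High against RFP, -0.0497 to 0.0228 for GFP Low against RFP and -0.0214 to 0.0978 between the 2 GFP groups when 1 library was left out. Without the libraries with the most cumulus counts, an alternative chosen after seeing the data, it was 0.0407 for GFP Low against RFP.

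Signs changed in 12, 13 and 10 of 280 refits of single genes per comparison, with values of at most 0.219, 0.0715 and 0.0841 in size, and the cause was not tested. With 1 library left out, GFP High against RFP ranged from -0.114 to 0.0884 for Ube2d3, -0.0353 to 0.139 for Ube2g1, -0.0795 to 0.0649 for Ube2k and -0.219 to 0.233 for Ube2m. GFP Low against RFP ranged from -0.0123 to 0.316 for Ube2c, -0.0106 to 0.531 for Ube2f, -0.0715 to 0.103 for Ube2g1, -0.0208 to 0.118 for Ube2j1, -0.0267 to 0.111 for Ube2k, -0.311 to 0.0527 for Ube2m, -0.0155 to 0.138 for Ube2q1 and -0.0458 to 0.165 for Ube2s. GFP High against GFP Low ranged from -0.134 to 0.0234 for Ube2w, -0.191 to 0.00635 for Ube2d2a, -0.0267 to 0.114 for Ube2g1 and -0.0841 to 0.369 for Ube2m. Ube2d3 in GFP High against RFP was 0.00113 with DESeq2 size factors, 0.00114 by DESeq2 and 0.00375 by limma-voom, and Ube2k was -0.00139 without the filter. Without the libraries with the most cumulus counts, Ube2t in GFP Low against RFP was 0.0332, and between the 2 GFP groups Ube2d2a was 0.0370, Ube2g1 -0.0233, Ube2k 0.0216 and Ube2w 0.0326.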
